A study of Mus musculus with 12 samples.

Results

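The 29 genes described here encode the enzymes that make cholesterol and the proteins that sense and answer to it: 18 enzymes from acetyl-CoA to cholesterol, 5 sterol sensors and regulators, the sterol carrier Stard4 and 5 genes of fatty acid synthesis. They were listed by their known roles, each is represented by the brightest probe set that the platform annotation gives to it, and 28 of 29 had one. Acat2 was left without a value, because no probe set was named for it here. All 28 reached a group mean intensity of 50, the level from which probe sets were tested, as did probe sets of 11053 of the 18194 genes named on the array. Their intensities came from primary chondrocytes, the cartilage cells of the tibiae, femurs and humeri of E15.5 CD1 mouse embryos, freed with trypsin and collagenase and grown as monolayers in serum. The cultures were kept in 100 nM dexamethasone (DEX), a synthetic glucocorticoid, or in its solvent DMSO (vehicle), with ascorbic acid and beta-glycerophosphate in both media, for 6 or 24 hrs. Each of the 4 groups held 3 arrays with the replicate numbers 1, 2 and 4, said to come from 3 independent experiments, and DEX and vehicle arrays of the same number and time point are called a pair.

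Cells build cholesterol from acetyl-CoA by way of mevalonate, isoprenoids, squalene and lanosterol, and they set the rate by transcription: when sterol in the endoplasmic reticulum is scarce, Scap carries the SREBP factors (Srebf1 and Srebf2) to the Golgi, where proteases free the part that enters the nucleus, while the Insig proteins hold Scap back when sterol is plentiful. The freed factors bind sterol regulatory elements, often beside a CCAAT box that NF-Y occupies. An excess of oxysterols acts through the LXR receptors, which raise sterol exporters such as Abca1 and Abcg1. In cartilage the pathway matters because Hedgehog proteins carry cholesterol and because inherited defects of its late enzymes, Dhcr7 and Ebp among them, malform the skeleton.

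The shared regulation can be looked for in the promoters. RefSeq promoters on GRCm38.p6, each with 250 bases before and 50 after a gene start, were found for 23 of the 29 genes, 31 promoters in all, and were searched on both strands. The NF-Y box CCAAT was found in 21 of 31, or 67.7%, against 37.4% of all 32851 promoters, and at least once in 20 of the 23 genes, against 41.1% of all genes. The core of a sterol regulatory element, TCACNCCAC, was found in 1 of 31, or 3.23%, against 1.24% of all promoters, and that promoter was the one of Hmgcs1, the enzyme that makes HMG-CoA. The E-box CACGTG, which SREBPs also bind, stood in 19.4% of the 31 and in 7.15% of all promoters. The palindromic glucocorticoid response element was found in 0 of 31 and in 0.475% of all promoters. No 2 different motifs overlapped in the 31 promoters, some of which overlap each other where gene starts are close, and a match of letters is not a bound site.

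Of these, 4 promoters are printed 5' to 3' along the gene: Hmgcs1, which holds the sterol regulatory element core, Lss and Msmo1, whose changes were among the 3 largest at 24 hrs, and Insig2 at 1 of its 3 starts, the one gene lower with DEX in every pair. They lie at chr13:119690101-119690400 (Hmgcs1, plus strand), chr10:76531355-76531654 (Lss, plus strand), chr8:64733529-64733828 (Msmo1, minus strand) and chr1:121332540-121332839 (Insig2, minus strand). Capitals mark CCAAT or its reverse complement and, in Hmgcs1 alone, also the sterol regulatory element core, which begins 137 bases before the gene start.
Hmgcs1: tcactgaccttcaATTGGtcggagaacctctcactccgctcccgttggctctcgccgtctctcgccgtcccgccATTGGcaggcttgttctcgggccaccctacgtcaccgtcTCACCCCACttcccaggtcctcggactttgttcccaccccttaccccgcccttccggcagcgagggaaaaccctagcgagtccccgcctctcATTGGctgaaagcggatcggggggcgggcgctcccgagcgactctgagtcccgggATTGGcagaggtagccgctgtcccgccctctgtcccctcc
Lss: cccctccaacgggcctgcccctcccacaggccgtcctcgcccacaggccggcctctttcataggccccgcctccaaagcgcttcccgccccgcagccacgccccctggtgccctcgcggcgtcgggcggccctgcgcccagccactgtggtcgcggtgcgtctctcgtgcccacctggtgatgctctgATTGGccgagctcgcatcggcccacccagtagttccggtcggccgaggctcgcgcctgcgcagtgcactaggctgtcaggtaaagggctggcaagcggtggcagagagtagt
Msmo1: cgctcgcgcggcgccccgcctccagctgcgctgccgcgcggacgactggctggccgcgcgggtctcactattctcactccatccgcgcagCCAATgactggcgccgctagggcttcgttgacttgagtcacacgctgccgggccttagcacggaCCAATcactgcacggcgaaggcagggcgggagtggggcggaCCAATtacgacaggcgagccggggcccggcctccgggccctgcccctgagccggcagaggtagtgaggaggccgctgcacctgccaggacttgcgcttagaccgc
Insig2: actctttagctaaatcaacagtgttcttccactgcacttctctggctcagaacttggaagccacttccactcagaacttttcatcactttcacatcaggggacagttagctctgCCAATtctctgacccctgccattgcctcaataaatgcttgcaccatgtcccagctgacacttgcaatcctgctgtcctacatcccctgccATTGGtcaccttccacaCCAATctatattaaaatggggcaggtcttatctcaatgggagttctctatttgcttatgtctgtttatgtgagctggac
Hmgcs1 carries 4 CCAAT boxes in this window, Lss 1, and Msmo1 and Insig2 3 each, while the promoters at the other 2 starts of Insig2 hold 0. The boxes of Msmo1 all read in the direction of the gene, beginning 160, 96 and 55 bases before its start.

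Before the values, some properties of the arrays bear on them. Median intensities of the arrays ran from 25.7 to 39.1. All 10 chondrocyte markers listed (Col2a1, Acan, Sox9 and others) were expressed, as were 6 of 8 macrophage and 6 of 10 adipocyte markers, whereas Adipoq, Cidec and Lep stayed below the intensity filter and 0 of 5 hepatocyte markers were expressed. Hybridization fell on 4 days: the 6 hrs arrays of replicates 1 and 2 shared day 3, those of replicate 4 day 4, the 24 hrs arrays of replicate 2 day 1, and those of replicates 1 and 4 day 2. DEX and vehicle of a pair shared a day, so each pair difference is a difference within a day. The array records give another replicate number to the 6 hrs arrays that are titled replicate 4, so the titles were followed and numbers were not used to pair arrays across time. The log2 difference between the 3' and the 5' probe set of the Gapdh control was 0.49 to 0.74 on the 4 arrays of day 3 and -0.33 to -0.22 on the other 8. DEX acted in these cultures: of 8 established glucocorticoid targets 6 rose at 6 hrs and 6 at 24 hrs, Fkbp5 by 2.46 and 1.95 on the log2 scale (adjusted p = 0.0036 and 0.016). Tests are by limma over all 20897 probe sets with intensity, without a block unless one is named, and adjusted p is by Benjamini and Hochberg.

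No gene of the 28 passed the test for DEX against vehicle. The count was 0 of 28 at 6 hrs, where 0.225% of all probe sets passed, 0 of 28 at 24 hrs, where 0.287% passed, and 0 of 28 over both times, where 0.747% passed. With each pair as a block it was again 0 of 28 in each of the 3 comparisons, beside 0.904%, 2.15% and 3.20% of all probe sets. Shares this small would give fewer than 1 call among 28 genes, so a count of 0 says little about these genes as a group. At an unadjusted p under 0.05 limma gave 0 genes at each time point and over both without the block, and 1, 6 and 2 with it. Of all probe sets 3.66%, 6.24% and 5.65% had such a p without the block and 11.3%, 17.1% and 14.7% with it. The unequal-variance test of the study's methods likewise gave 0 after adjustment. At an unadjusted p under 0.05 it gave 1, 0 and 0. No share of all probe sets is given for this test, so its counts cannot be set against a background. The difference of the DEX effects of both time points was also tested by limma. Past the threshold were 0 of 28 genes beside 0% of all probe sets, and with the block 0 genes beside 0.00479%. At an unadjusted p under 0.05 it gave 0 genes beside 3.63% of all probe sets, and with the block 1 gene beside 12.8%.

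The intervals of the estimates were wide. Over the 28 genes the moderated standard error had a median of 0.26 on the log2 scale at either time point, and 0.16 with the pairs as a block. At 6 hrs the fold changes ran from -0.42 (Insig2) to 0.25 (Lss) and at 24 hrs from -0.41 (Srebf2) to 0.56 (Lss). In the fit without a block the 95% intervals of all 28 held 0 at both times. Over the genes they reached from -1.26 to 1.22 at 6 hrs and from -1.21 to 1.45 at 24 hrs, the widest being those of Fdps. Without a block those of Fdps, Tm7sf2 and Dhcr7, among others, held a 2-fold change. With the pairs as a block the standard errors of these 3 genes at 24 hrs were 0.16, 0.27 and 0.26, in place of 0.55, 0.45 and 0.44. In bulk RNA of a culture, fewer cells that express a gene and less of its RNA in each cell cannot be told apart.

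**Figure D1:**
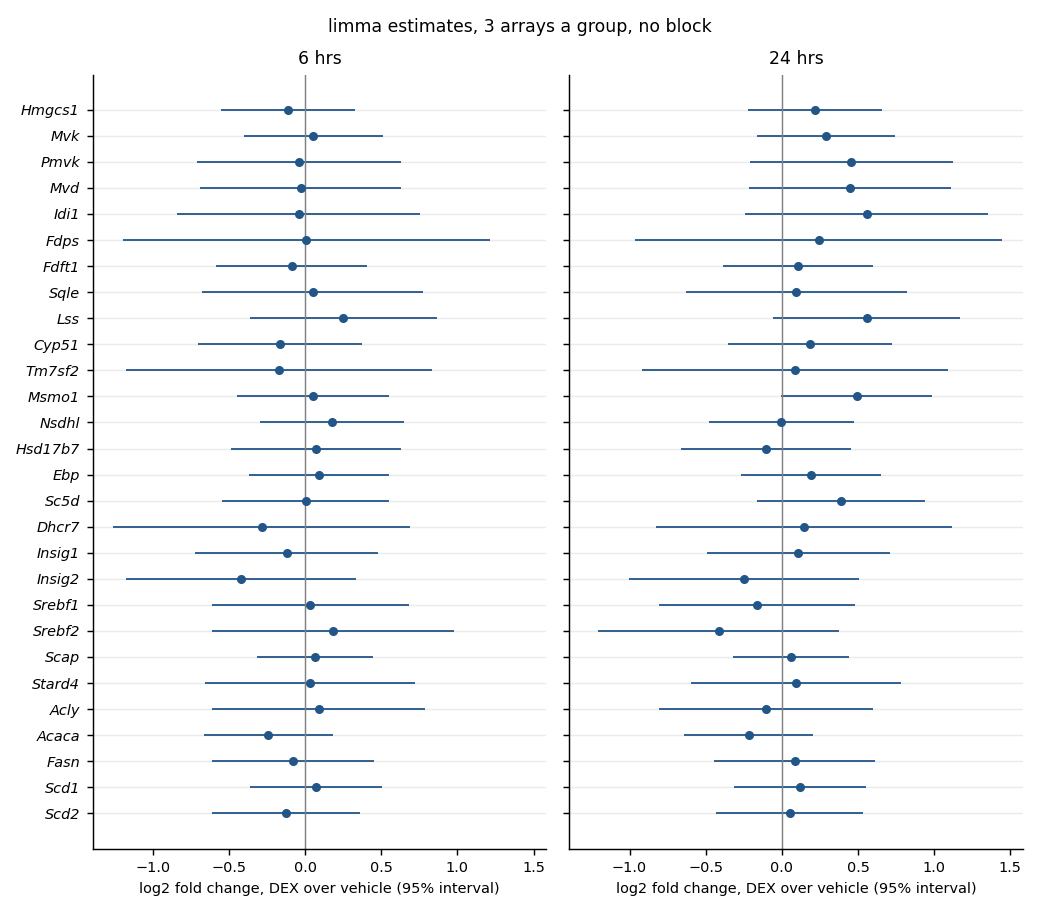
The points are log2 fold changes of DEX over vehicle for the 28 genes at 6 hrs (left) and 24 hrs (right). The bars are 95% intervals from limma with 3 arrays a group and no block. Every interval crosses 0, and those of Fdps, Tm7sf2 and Dhcr7 are among the widest.

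At 6 hrs the sterol genes were centred on 0. Of 28 genes 15 lay above 0, with a median log2 fold change of 0.0058, while 48% of all probe sets lay above 0 and their median was -0.0096. The 3 pairs gave 14, 15 and 14 of 28 genes higher with DEX. At 24 hrs 21 of 28 lay above 0 with a median of 0.11, against 45.1% and -0.0295 over all probe sets. Among the 17 measured enzymes of cholesterol synthesis 15 lay above 0 at 24 hrs, with a median of 0.22. Of the 11 other genes 6 lay above 0, Insig1, Scap, Stard4, Fasn, Scd1 and Scd2.

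At 24 hrs the pairs differed. In replicate 4 all 17 enzymes were higher with DEX than with vehicle, by 0.059 to 1.05 on the log2 scale with a median of 0.62, while 47.9% of all probe sets were higher and their median was -0.0169. In replicates 1 and 2 at 24 hrs 10 and 9 of the 17 were higher, with medians of 0.096 and 0.069. On the array of DEX at 24 hrs replicate 4 the enzymes reached the highest of their 6 values at 24 hrs in 17 of 17 genes, which held for 13.6% of all probe sets. At the other end, 16 of the 17 had their lowest 24 hrs value on the vehicle or the DEX array of replicate 2, the only arrays of day 1, as 40.8% of all probe sets had. The dimmer probe sets of the same enzymes, which did not enter the counts so far, followed: 12 of 13, from 9 genes, were highest on that array. Of the 11 other members 5 were highest there, Insig1, Stard4, Fasn, Scd1 and Scd2. Without both replicate 4 arrays of 24 hrs the median over the 28 genes was 0.0071 in place of 0.11, with 14 above 0 and 14 not. In the fit without a block, leaving out single arrays moved this median too. It was -0.065 without the DEX array of replicate 4 and 0.0012 without the vehicle array of replicate 2. It was 0.19 without the vehicle array of replicate 1 and 0.35 without the DEX array of replicate 2. Each of these fits kept the partner of the array left out, so differences between replicates enter these values. Within the pairs the median over the 28 genes was -0.0081, -0.018 and 0.53 in replicates 1, 2 and 4. The DEX array of replicate 4 was singled out after its values were seen, and no test was made of it.

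**Figure D2:**
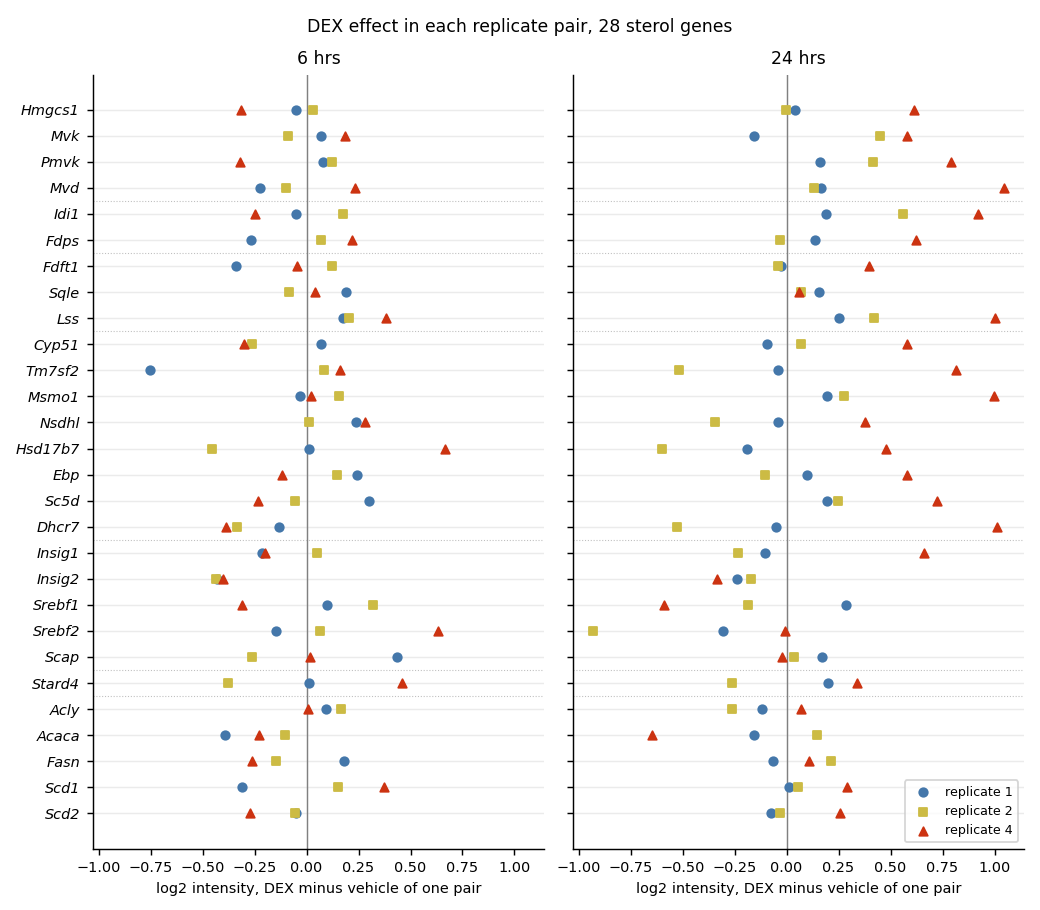
Each mark is the log2 intensity of DEX minus vehicle in 1 pair for 1 of 28 genes, at 6 hrs (left) and 24 hrs (right), with dotted lines between the steps of the pathway. The triangles of replicate 4 lie to the right of 0 for all 17 enzymes, from Hmgcs1 to Dhcr7, at 24 hrs, and on both sides of 0 at 6 hrs.

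Other measures of that array are given beside this. It was hybridized on the same day as replicate 1 at 24 hrs and its vehicle array, its Gapdh 3' to 5' difference was -0.32, within the range of the other arrays outside day 3, and its median intensity was 34.9. The established glucocorticoid targets lay a median 1.88 above the vehicle mean on it, against 1.78 and 1.86 on the other 2 DEX arrays at 24 hrs. The 10 chondrocyte markers had a summed intensity of 34460, against 27670 and 35330 on the other 2 DEX arrays and 25390 to 35570 on the 3 vehicle arrays. The macrophage markers, expressed in 6 of 8, summed to 639, against 574 and 711 with DEX and 720 to 874 with vehicle. The adipocyte markers, expressed in 6 of 10, summed to 2071, against 1953 and 2454 with DEX and 1104 to 1240 with vehicle, with Fabp4 the one that rose over both times (adjusted p = 0.040) and most of each DEX sum. Their median log2 difference from the vehicle mean, which weighs the 6 genes alike, was 0.25 on this array, the highest of the 24 hrs arrays, against -0.24 to 0.063 on the other 5. The same median was 0.22 for the chondrocyte markers, against -0.28 to 0.37, and -0.28 for the macrophage markers, against -0.32 to 0.074. The part of any of these in the enzymes' values was not tested.

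**Figure D3:**
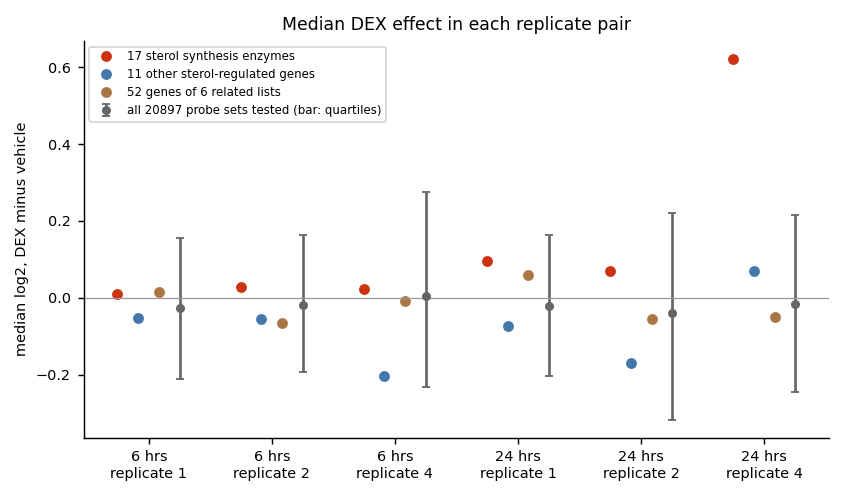
Points are medians of the log2 difference of DEX minus vehicle in each of the 6 pairs, for the 17 enzymes of cholesterol synthesis, the 11 other members, 52 genes of 6 related lists and all 20897 probe sets, whose bars span the quartiles. The enzymes reach 0.62 in replicate 4 at 24 hrs, above the upper quartile of all probe sets, and lie between 0.0098 and 0.096 in the other 5 pairs.

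The early steps of the pathway turn acetyl-CoA into mevalonate and phosphorylate it. Pmvk, the second mevalonate kinase, read 166, 139 and 172 in vehicle and 185, 185 and 297 with DEX at 24 hrs. Its 24 hrs groups did not overlap, and the value of replicate 4 stood far above the rest. The fold change was 0.46 ± 0.30 (SE, n = 3; adjusted p = 1.00 by limma), 0.29 without both replicate 4 arrays and 0.23 without the DEX array alone, against -0.039 ± 0.30 at 6 hrs, where vehicle read 218, 207 and 143 and DEX 230, 226 and 114. Groups that do not overlap are no rarity at 24 hrs: they occurred in 19.4% of all probe sets, and in 2 of 28 members, Pmvk and Sc5d. At 6 hrs the share was 6.00%, and 1 of 28, Acaca, was such a gene.

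Mvd, which decarboxylates mevalonate diphosphate, read 156, 120 and 141 in vehicle and 175, 132 and 290 with DEX at 24 hrs. The groups overlapped, and leaving out both replicate 4 arrays took the fold change from 0.45 ± 0.30 (SE, n = 3) to 0.15. At 6 hrs it read 77.8, 102 and 103 in vehicle and 66.7, 94.8 and 121 with DEX, a change of -0.030. Hmgcs1 and Mvk behaved alike in the pair of replicate 4 at 24 hrs, higher by 0.61 and 0.58. In the pairs of replicates 1 and 2 Hmgcs1 differed by 0.041 and -0.0036.

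The isoprenoid steps are held by Idi1, which isomerizes isopentenyl diphosphate, and Fdps, which joins the units to farnesyl diphosphate. Idi1 read 584, 323 and 542 in vehicle and 667, 476 and 1024 with DEX at 24 hrs, higher in all 3 pairs, although the groups overlapped. Its change was 0.56 ± 0.36 (SE, n = 3; adjusted p = 1.00) without a block and had an adjusted p of 0.14 with the pairs as a block. Without replicate 4 it was 0.38. At 6 hrs it read 740, 663 and 458 in vehicle and 715, 748 and 385 with DEX. Its second probe set gave 0.40 at 24 hrs and 0.066 at 6 hrs. Fdps was higher by 0.62 in the pair of replicate 4 at 24 hrs and differed by 0.13 and -0.032 in the other 2.

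Squalene is made by Fdft1, oxidized by Sqle and closed to lanosterol by Lss. Lss was the one gene of the 28 that was higher with DEX in 6 of 6 pairs, which 4.29% of all probe sets were. At 6 hrs it read 251, 321 and 184 in vehicle and 283, 370 and 240 with DEX. At 24 hrs it read 287, 205 and 250 in vehicle and 341, 274 and 500 with DEX. Each DEX array exceeded the vehicle array of its pair, although the groups overlapped at both times. The change was 0.25 ± 0.28 at 6 hrs and 0.56 ± 0.28 at 24 hrs (SE, n = 3; adjusted p = 1.00 and 0.87), and 0.40 over both times, with an adjusted p of 0.98 without and 0.12 with the pairs as a block. Without replicate 4 the 24 hrs change was 0.34. A dimmer Lss probe set, at a mean intensity of 52.1, gave -0.074 and 0.10, so the 2 probe sets differed in sign at 6 hrs. Sqle differed by no more than 0.19 in any pair, and Fdft1 was higher by 0.39 in replicate 4 at 24 hrs and lower in the other 2 pairs.

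From lanosterol to cholesterol 8 enzymes remove methyl groups, shift a double bond and reduce others. Msmo1, the sterol C4-methyl oxidase, read 582, 431 and 509 in vehicle and 666, 523 and 1015 with DEX at 24 hrs. All 3 pairs were higher, and the groups overlapped. The change of 0.49 ± 0.23 (SE, n = 3) had the lowest adjusted p of the 28 genes at 24 hrs without a block, 0.82, and it was 0.24 without replicate 4. At 6 hrs it read 457, 440 and 419 in vehicle and 447, 491 and 426 with DEX, a change of 0.050.

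Sc5d, the lathosterol oxidase, read 187, 172 and 173 in vehicle and 214, 204 and 286 with DEX at 24 hrs, without overlap. The change was 0.39 ± 0.25 (SE, n = 3; adjusted p = 1.00), and 0.22 without replicate 4. At 6 hrs vehicle read 291, 314 and 219 and DEX 358, 302 and 186, overlapping widely. The dimmer expressed probe sets of Sc5d, at mean intensities of 62.4 and 58.3, gave -0.36 and 0.19 at 24 hrs, so its probe sets differed in sign. The other 6 genes of this stretch, Cyp51, Tm7sf2, Nsdhl, Hsd17b7, Ebp and Dhcr7, changed sign between pairs at 24 hrs. Dhcr7, which makes cholesterol from its last precursor, was higher by 1.01 in replicate 4 and lower in the other 2, with differences of -0.052 and -0.53. Hsd17b7 likewise ran from -0.60 to 0.48.

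**Figure D4:**
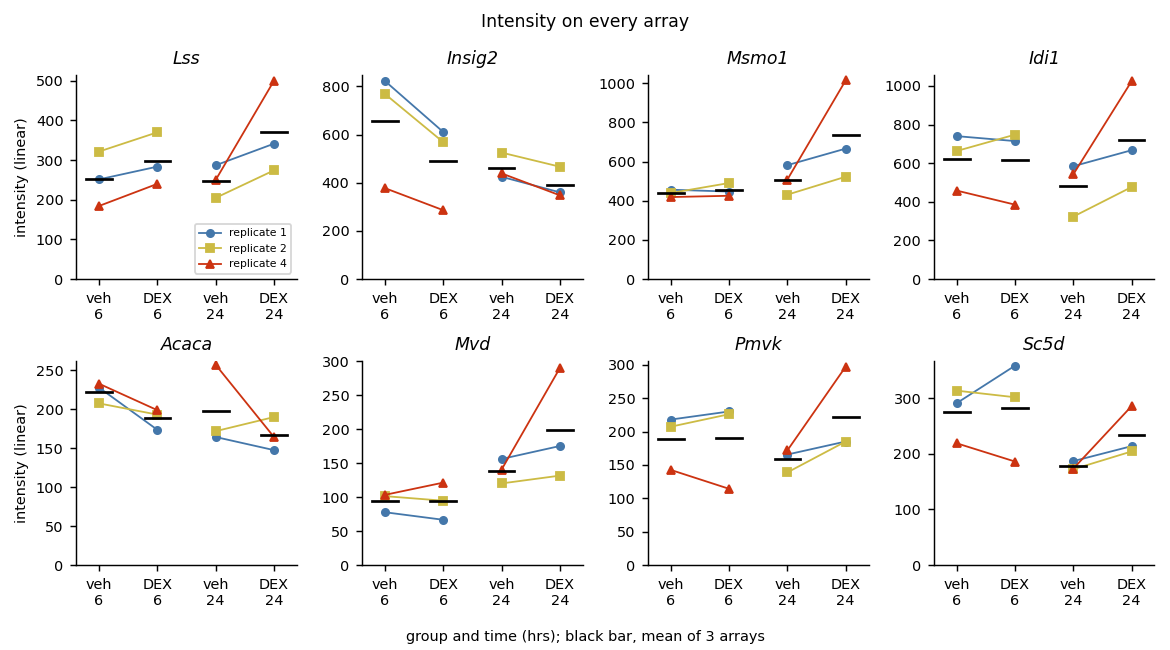
Intensity on a linear scale on every array for the 8 genes with the largest mean change over both times, with lines joining the pairs and black bars at the means of 3 arrays. In Lss, Msmo1, Idi1, Mvd, Pmvk and Sc5d the DEX array of replicate 4 at 24 hrs is the highest of its time point, while Insig2 runs downward in all 6 pairs.

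Among the sensors Insig2, which retains Scap in the endoplasmic reticulum and in liver is induced by fasting, went the other way. At 6 hrs it read 822, 768 and 377 in vehicle and 610, 568 and 286 with DEX. At 24 hrs it read 425, 525 and 439 in vehicle and 360, 466 and 348 with DEX. It was lower with DEX in 6 of 6 pairs, by 0.17 to 0.43 on the log2 scale, as 4.71% of all probe sets were. The groups overlapped at both times. At 6 hrs the vehicle arrays alone spanned 377 to 822, and at 24 hrs DEX replicate 2 (466) exceeded vehicle replicates 1 and 4 (425 and 439). The change over both times was -0.33 ± 0.24 without a block (SE; adjusted p = 1.00 by limma) and had an adjusted p of 0.058 with the pairs and 0.038 with the hybridization day as a block, so it fell by the last of these fits alone, in which 2.87% of all probe sets passed. In the fit without a block, leaving out 1 array of the pair of replicate 4 at 6 hrs, the dimmest, moved the change most. It was -0.51 without the vehicle array of that pair and -0.16 without its DEX array. The values without any other array lay between these. Each of these fits kept the partner of the array left out. The pair differences themselves were alike at 6 hrs, -0.43, -0.43 and -0.40 in replicates 1, 2 and 4. The other 2 expressed Insig2 probe sets gave changes over both times of -0.18 and -0.27. They fell short of the threshold as well.

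Insig1, whose transcript rises with SREBP activity in many cells, resembled the enzymes: it differed by -0.10, -0.23 and 0.66 at 24 hrs in replicates 1, 2 and 4. The transcripts of the SREBP factors themselves did not. Srebf2, the factor of the cholesterol genes, was lower in all 3 pairs at 24 hrs by its brightest probe set, by 0.31, 0.93 and 0.0057, a change of -0.41 ± 0.36 (SE, n = 3; adjusted p = 1.00), but its other probe set gave 0.098. Srebf1, the factor of the fatty acid genes, differed by 0.29, -0.19 and -0.59. Scap differed by no more than 0.17 in any pair at 24 hrs.

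In fatty acid synthesis Acaca, the acetyl-CoA carboxylase that makes malonyl-CoA, read 228, 207 and 233 in vehicle and 173, 193 and 199 with DEX at 6 hrs. These groups did not overlap. At 24 hrs it read 164, 172 and 257 in vehicle and 147, 190 and 164 with DEX, where they did. The changes were -0.24 ± 0.19 and -0.22 ± 0.19 (SE, n = 3; adjusted p = 1.00 for both), and without the replicate 4 arrays that at 24 hrs was -0.0054. Fasn, Scd1 and Scd2, whose products extend and desaturate fatty acids, were higher by 0.11, 0.29 and 0.26 in replicate 4 at 24 hrs and the sterol carrier Stard4 by 0.34. Acly, which supplies cytosolic acetyl-CoA, differed by 0.071.

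Of 64 genes in 6 lists on related functions, 52 were measured, and 0 passed the test in either direction at 6 hrs, at 24 hrs or over both times by limma, with 3, 2 and 5 at an unadjusted p under 0.05, beside 3.66%, 6.24% and 5.65% of all probe sets. In replicate 4 at 24 hrs 19 of the 52 were higher with DEX, with a median of -0.050, and 11 of 52 were highest of the 24 hrs arrays on DEX replicate 4. The LXR list, measured in 6 of 9 genes, had a median of -0.079 at 6 hrs and -0.19 at 24 hrs. Its member Abcg1, a sterol exporter chosen here after its values were seen, read 208, 181 and 121 in vehicle and 86.8, 113 and 91.9 with DEX at 24 hrs. These groups did not overlap, as 19.4% of all probe sets did not at 24 hrs. Abcg1 was lower in 6 of 6 pairs, as 4.71% of all probe sets were. At 6 hrs its pair differences were small, -0.0016, -0.090 and -0.15 in replicates 1, 2 and 4. At 24 hrs the change was -0.78 ± 0.25 (SE, n = 3; adjusted p = 0.48 by limma, 0.065 with the pairs as a block). Abca1 differed by -0.24 ± 0.18 at 24 hrs (adjusted p = 1.00). The other medians at 6 and 24 hrs were -0.029 and -0.041 for SREBP cleavage and Insig turnover (7 of 8 measured), 0.037 and -0.053 for sterol uptake, storage and traffic (12 of 13), -0.23 and -0.28 for oxysterol and steroid synthesis (4 of 8), 0.068 and 0.034 for other fatty acid genes (13 of 15) and -0.085 and 0.044 for the branch to other isoprenoids (10 of 11).

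Between 6 and 24 hrs the vehicle arrays differed by -0.61 to 1.62 on the log2 scale over the 28 genes, but no hybridization day held both times, so time and day cannot be told apart. Of the 28 genes 0 passed the test for vehicle at 24 hrs against 6 hrs by limma (0.00957% of all probe sets did). By limma 6 had an unadjusted p under 0.05, as 30.5% of all probe sets had. The unequal-variance test gave 0 and 4, with no share of all probe sets given. Fdps read 233, 183 and 577 at 6 hrs and 973, 703 and 1044 at 24 hrs, a difference of 1.62 ± 0.55 (SE, n = 3; adjusted p = 0.11). The 2 low values were those of day 3, and against replicate 4 of 6 hrs alone the difference was 0.63. Without that replicate 4 vehicle array 4 of 28 passed, Fdps, Srebf2 and Dhcr7 higher and Sc5d lower at 24 hrs, beside 31.5% of all probe sets. Without the DEX array of replicate 4 at 6 hrs Fdps and Srebf2 passed, 2 of 28, beside 13.8%.

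Srebf2 read 119, 125 and 173 at 6 hrs and 399, 313 and 334 at 24 hrs in vehicle, 1.34 ± 0.36 higher on the log2 scale (SE, n = 3; adjusted p = 0.078). Against replicate 4 of 6 hrs alone it was 1.00 higher by this, its brightest probe set. The other Srebf2 probe set read 32.25, 62.41 and 215.5 at 6 hrs and 234.6, 211.5 and 306.4 at 24 hrs in vehicle. Its replicate 4 value at 6 hrs thus lay within its range at 24 hrs. Dhcr7 read 69.6, 96.9 and 201 at 6 hrs and 214, 254 and 191 at 24 hrs, so that the difference of 0.98 was 0.12 against replicate 4 alone. The day 3 arrays also set probe sets of 1 gene apart. The brightest Scd2 probe set read 1661, 1934 and 2012 at 6 hrs, whereas another read 86.3, 145 and 855. For Hmgcs1 1 probe set read higher and another lower on day 3 than on day 4.

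**Figure D5:**
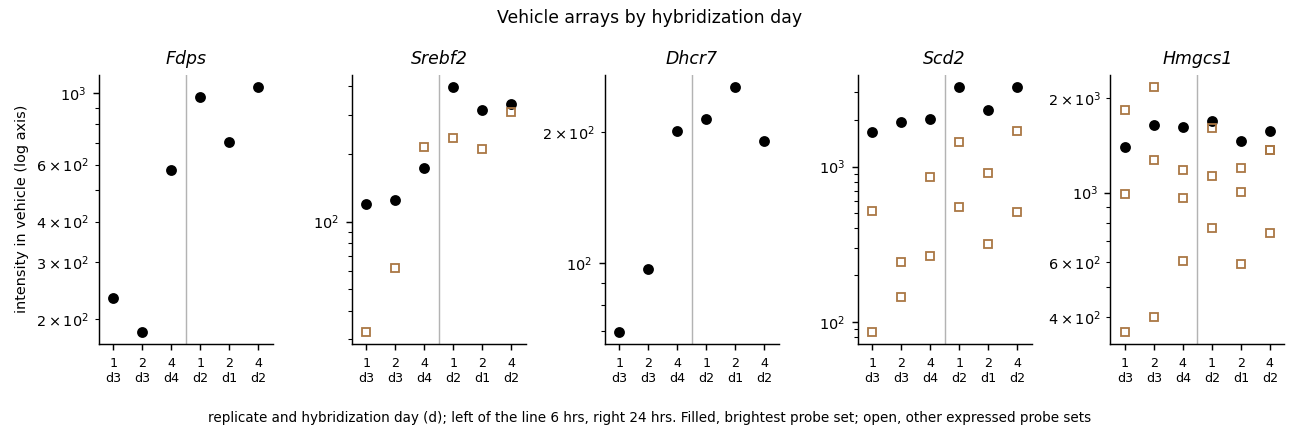
Vehicle intensity, on log axes, of 5 genes by replicate and hybridization day (d1 to d4), with filled points for the brightest probe set and open squares for the other expressed ones. The day 3 arrays (replicates 1 and 2 at 6 hrs) are low for Fdps and Dhcr7 and spread the probe sets of Srebf2, Scd2 and Hmgcs1 apart.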

How the data were processed

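RNA of chondrocyte cultures was hybridized to Affymetrix Mouse 430 2.0 arrays (12 arrays, 45101 probe sets). GC-RMA, run by the authors in GeneSpring GX, supplied normalization and background correction, and the deposited values are linear intensities. Per the labels, GCRMA was used, and its version is not given in the sources used here. Depth does not apply to arrays, and their number limits the precision. Intensities were put on the log2 scale with no pseudocount. Probe sets with a group mean of at least 50 (20897) were tested by lmFit and eBayes of limma 3.58.1 (R 4.3.3; 12 arrays, a mean for each group, no block) with Benjamini-Hochberg adjustment at a threshold of 0.05. Alternatives included the replicate pairs or the hybridization day as a block, filters, scalings, probe set choice, Welch's test and leaving out arrays. The fit was tested on simulated data. Tables and figures were made with Python 3.11.15, pandas 2.3.3 and matplotlib 3.10.9.

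Same-numbered DEX and vehicle arrays deviated together, with correlations of 0.632 to 0.863 for 6 hrs and 0.158 to 0.301 for 24 hrs. Each was above 0.1, and same-numbered arrays were taken as pairs within a time point. Unlike-numbered arrays gave -0.216 to 0.0181 at 24 hrs. At 6 hrs those of replicates 1 and 2, which shared day 3, gave 0.506 and 0.571. The 6 hrs correlations therefore cannot tell pairing by number from a shared day. Days came from the array records (column 2 of other values deposited with each array). Probe sets with 1 symbol numbered 34958, with several 932 and with none 9211. A gene is represented by its brightest expressed probe set. The genes given with every array's value are the 8 members with the largest mean change over both times, since none passed the threshold without a block or with the pairs as a block. Members and lists were chosen with earlier results of these data known. Promoter sequences are from RefSeq, GRCm38.p6. P-values measure the spread between arrays said to come from 3 independent experiments.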

Additional observations from a re-analysis of the deposited data

How the results depend on the processing

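With 3 arrays a group, the intervals of some genes held a 2-fold change without a block, and time in vehicle could not be separated from hybridization day. The count of members called stayed at 0 for DEX at 6 hrs, at 24 hrs and for the difference between the times under every alternative, the replicate block included. Over both times the hybridization day as a block gave 1, Insig2 (-0.33, adjusted p = 0.038), and the pairing as a replicate block gave 0. The median over members at 6 hrs was 0.0058, and it was -0.026 within day 3, -0.0189 within day 4 and -0.037 with the mean of all expressed probe sets of a gene. Without the 4 arrays of day 3 it was -0.080. That value rests on the same pair as the one within day 4, with each gene's brightest probe set chosen again on the arrays left. Leaving out 1 array at a time moved the median at 6 hrs between -0.061 and 0.046 and that at 24 hrs between -0.065 and 0.35. These fits had no block and kept the partner of the array left out. The count for vehicle at 24 against 6 hrs moved between 0 and 4. Within day 1 Acaca at 24 hrs reversed, to 0.14. The causes were not tested. Leaving out both arrays of replicate 4 at 24 hrs was chosen after seeing the data.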
